A study of Homo sapiens with 4 samples.

Results

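Transcripts of the receptor tyrosine kinases ALK, LTK and RET, of the RET co-receptors GFRA1, GFRA2 and GFRA3, and of the ligands MDK, PTN, GDNF and ARTN were followed in neuroblastoma cells after knockdown of NeuroD1. These are 10 genes of the 60612 in the deposited count table. They were chosen by pathway role and from the same knockdown contrast that is described here, so their levels, log2 fold changes and standard errors (SE) are given as a description, without p-values. Further pathway genes are given with adjusted p-values over all genes tested. Their lists were also chosen with earlier results of these data known, so those p-values describe this contrast and are no independent support. RNA was sequenced from IMR-32, a human neuroblastoma line with MYCN amplification that is widely used in culture. Cells had been stably transduced with a hairpin RNA under doxycycline control, which was a control hairpin for shControl (2 libraries) and a NeuroD1 hairpin for shNeuroD1 (2 libraries). Both groups received doxycycline at 1 µg/mL for 48 h, and the labels give the controls as wild type and the others as NeuroD1 knockdown. Whether the libraries of each group are separate cultures is not stated in the labels, so p-values measure the spread between these libraries, which may be technical. The study's own table of these counts names both knockdown columns after 1 hairpin, so other effects of that hairpin and the loss of NeuroD1 cannot be told apart.

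ALK, LTK and RET are cell-surface receptors that, once bound by ligand, phosphorylate themselves and signal through adaptor proteins to the RAS-ERK and PI3K-AKT pathways. ALK and RET are both known in the sympathetic lineage from which neuroblastoma arises, and activating mutations of ALK occur in this tumor. RET does not bind its ligands alone: each GDNF-family ligand first binds a lipid-anchored GFRA co-receptor, with GDNF preferring GFRA1, neurturin GFRA2 and artemin GFRA3. Midkine (MDK) and pleiotrophin (PTN) are heparin-binding growth factors that have been described as ALK ligands and that also bind syndecans, glypicans and the phosphatase PTPRZ1.

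The knockdown was visible in its target. NEUROD1, the targeted neuronal bHLH transcription factor, stood at 419 and 414 CPM (counts scaled to a common library size, with a factor per library from the TMM method) with shControl and at 63.7 and 58.2 with shNeuroD1. Its log2 fold change was −2.77 (SE 0.0504, edgeR quasi-likelihood test, adjusted p = 8.6e-29). Library totals ran from 14665210 to 16482463 counts. The 10 adrenergic markers, which define this kind of neuroblastoma cell, each exceeded 1 CPM in at least 1 library, with summed levels of 2224 to 2241 CPM with shControl and 1993 to 2024 CPM with shNeuroD1, although DBH (11 to 24 counts) and TH (10 to 88 counts) were scarce. The 14 mesenchymal and Schwann cell markers summed to 355 to 363 CPM with shControl and to 640 to 643 CPM with shNeuroD1. VIM accounted for most of that sum, with 243 and 239 CPM with shControl against 549 and 544 CPM with shNeuroD1, while PRRX1 was at 0 in all libraries and COL1A2 and FOSL1 stayed under 1 CPM. Of this second list, 4 genes passed lower and 5 higher among 11 tested, at an edgeR adjusted p under 0.05. Over all genes tested, 28.2% passed lower and 26.8% higher. The part of these markers in the results below was not tested.

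Of the 10 genes, 8 had enough counts to be tested. ALK, RET, LTK, GFRA2, GFRA3 and PTN were higher after knockdown and GFRA1 and MDK lower, and the sizes ranged from a 15.9-fold lower GFRA1 to a 4.68-fold higher RET. At an adjusted p under 0.05, 6 passed higher and 2 lower, where 26.8% of the 17537 genes tested passed higher and 28.2% lower. Scaling by library size alone turned that balance, with 6114 genes passing higher and 3639 lower against 4698 and 4939 with TMM. With a log2 fold change beyond 1 in size as well, 3 were called higher (ALK, LTK and RET) and 1 lower (GFRA1), where 8.79% of genes were called higher and 5.14% lower. As the contrast itself chose the genes, nothing is read from these counts. The groups did not overlap in 8 of the 8 tested members, nor in 13338 of all 17537 genes tested (76.1%). LTK passed the filter on low counts only through its shNeuroD1 libraries, and neither LTK nor GFRA3 passed with DESeq2 or without shControl replicate 1, shControl replicate 2 or shNeuroD1 replicate 2. In bulk RNA, a change in the number of cells that express a gene and a change in the RNA per cell cannot be told apart.

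**Figure D1:**
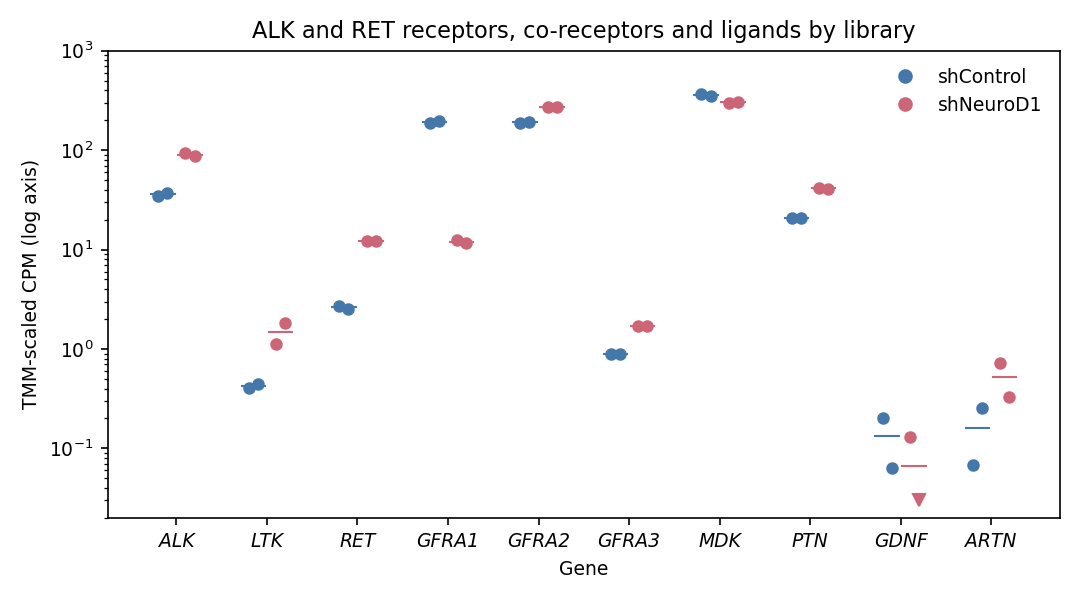
TMM-scaled CPM (log axis) of the 10 genes in each of the 4 libraries, with shControl in blue and shNeuroD1 in red; short lines mark group means and the triangle marks a library with 0 counts. ALK, LTK, RET, GFRA2, GFRA3 and PTN sit higher in both shNeuroD1 libraries, GFRA1 and MDK sit lower, and GDNF overlaps between the groups.

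ALK lies at chr2:29192774-29921566 on the minus strand (GRCh38). It gave 504 and 594 counts with shControl and 1423 and 1329 with shNeuroD1. Both shNeuroD1 libraries were above both controls, by far more than the libraries of a group differed. In CPM this was 35.8 ± 2.27 (SD, n = 2) against 90.4 ± 4.43, a log2 fold change of 1.33 (SE 0.0651). Other genes lie inside the long ALK locus, RN7SL516P on the same strand and AC106870.2 and AC106870.1 on the opposite strand, and the use of strand in counting is not given in the sources used here.

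RET, the signalling receptor for the GDNF family, lies at chr10:43077027-43130351 on the plus strand. It was scarce with shControl, with 40 counts in each library, and reached 186 and 187 counts with shNeuroD1. The libraries of each group nearly coincided. RET CPM went from 2.62 ± 0.138 (SD, n = 2) to 12.3 ± 0.0381, and the log2 fold change was 2.23 (SE 0.178).

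LTK, the closest relative of ALK in sequence and a receptor for the same ALKAL ligands, lies at chr15:41503638-41513887 on the minus strand. It had 6 and 7 counts with shControl and 17 and 28 with shNeuroD1. The order of the groups was the same as for ALK and RET, but at this depth the log2 fold change of 1.78 carried an SE of 0.478. It was 1.38 when shNeuroD1 replicate 2 was left out and 2.09 when shNeuroD1 replicate 1 was.

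The promoters of ALK, RET and GFRA1, the called members with at least 40 counts in every library, are shown because ALK and RET rose and GFRA1 fell when a transcription factor was depleted that binds E-boxes, the 6-base motif CANNTG. Each is 300 bases, from 250 bases before a RefSeq gene start to 50 bases at and after it (RefSeq promoter table, GRCh38.p14), written along the gene's strand with every E-box in capitals. The ALK window is chr2:29921537-29921836 (minus strand), the RET window is chr10:43076819-43077118 (plus strand), and the GFRA1 window is chr10:116272426-116272725 (minus strand).
ALK: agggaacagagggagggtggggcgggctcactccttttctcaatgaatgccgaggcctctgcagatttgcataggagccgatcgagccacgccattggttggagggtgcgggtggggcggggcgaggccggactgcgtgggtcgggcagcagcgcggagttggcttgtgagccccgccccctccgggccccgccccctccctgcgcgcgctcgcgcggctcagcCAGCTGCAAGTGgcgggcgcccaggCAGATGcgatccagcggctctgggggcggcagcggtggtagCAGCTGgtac
RET: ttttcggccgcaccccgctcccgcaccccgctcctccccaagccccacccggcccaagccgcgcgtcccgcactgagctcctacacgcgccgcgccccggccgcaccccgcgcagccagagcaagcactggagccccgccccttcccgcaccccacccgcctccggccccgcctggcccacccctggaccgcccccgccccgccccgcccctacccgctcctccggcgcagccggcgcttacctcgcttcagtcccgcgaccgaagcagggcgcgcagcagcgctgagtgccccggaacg
GFRA1: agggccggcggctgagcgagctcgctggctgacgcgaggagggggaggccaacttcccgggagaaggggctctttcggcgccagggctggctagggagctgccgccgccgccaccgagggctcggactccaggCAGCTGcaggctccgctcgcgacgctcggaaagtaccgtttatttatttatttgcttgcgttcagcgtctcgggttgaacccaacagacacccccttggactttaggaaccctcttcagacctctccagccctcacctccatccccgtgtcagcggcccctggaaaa

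The ALK window held 4 E-boxes, which begin at −26 (CAGCTG), −20 (CAAGTG), −1 (CAGATG) and 41 (CAGCTG) relative to the RefSeq start. The RET window, at the main start listed with shNeuroD1, held none. A second RET window, which begins 27451 bases downstream of that listed start, held 2. The LTK window, not printed because LTK rests on 6 to 28 counts per library, held 1 CATCTG at −171. The GFRA1 window, the nearest of its RefSeq windows to the start used here, held 1 CAGCTG at −117. Of all 35116 promoters in that table, 68.7% held at least 1 CANNTG, 5.58% held at least 4 and 31.3% held none. The forms CAGATG or its reverse complement CATCTG or the palindrome CAGCTG, which are known for NeuroD1 and are all CANNTG as well, were in 29.8%. A match is a description of the letters and not a binding site. The transcript start that the deposited transcript tables use for GFRA1 begins 559 bases upstream of the printed GFRA1 window, and the next RefSeq window upstream, at chr10:116274656-116274955, held 4 E-boxes.

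GFRA1, the preferred co-receptor for GDNF, showed the largest change of the 10 genes. It lies at chr10:116056925-116273467 on the minus strand. GFRA1 had 2758 and 3094 counts with shControl and 189 and 176 with shNeuroD1. Both control libraries were far above both knockdown libraries. The mean CPM went from 191.0 ± 5.46 (SD, n = 2) to 11.99 ± 0.612, which is 6.28% of the control level, with a log2 fold change of −3.99 (SE 0.0690). Leaving out each library in turn gave values from −4.05 to −3.94.

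GFRA2, the preferred co-receptor for neurturin, lies at chr8:21690403-21812357 on the minus strand and moved the other way. It had 2784 and 3060 counts with shControl and 4154 and 4168 with shNeuroD1. Both knockdown libraries were above both controls, with a log2 fold change of 0.52 (SE 0.0433). GFRA3, the preferred co-receptor for artemin (chr5:138252379-138274671, minus strand), had 13 and 14 counts with shControl and 26 in each shNeuroD1 library. Its log2 fold change was 0.95 (SE 0.383), and it overlaps the processed pseudogene RPS27AP18 on the same strand.

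Per length, the 3 co-receptors could be set side by side as RPKM (CPM divided by the length in kilobases of the union of GENCODE 29 exons). GFRA1 made up 36.6% and 37.1% of their summed RPKM in the controls and 2.57% and 2.39% after knockdown. GFRA2 made up 62.6% and 62.1% with shControl and 95.7% and 95.9% with shNeuroD1, and GFRA3 made up 0.797% to 1.68%. The pool thus went from a mixture of GFRA1 and GFRA2 to nearly GFRA2 alone. The ratio of GFRA2 to GFRA1 RPKM was 1.71 and 1.67 with shControl and 37.2 and 40.1 with shNeuroD1.

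**Figure D2:**
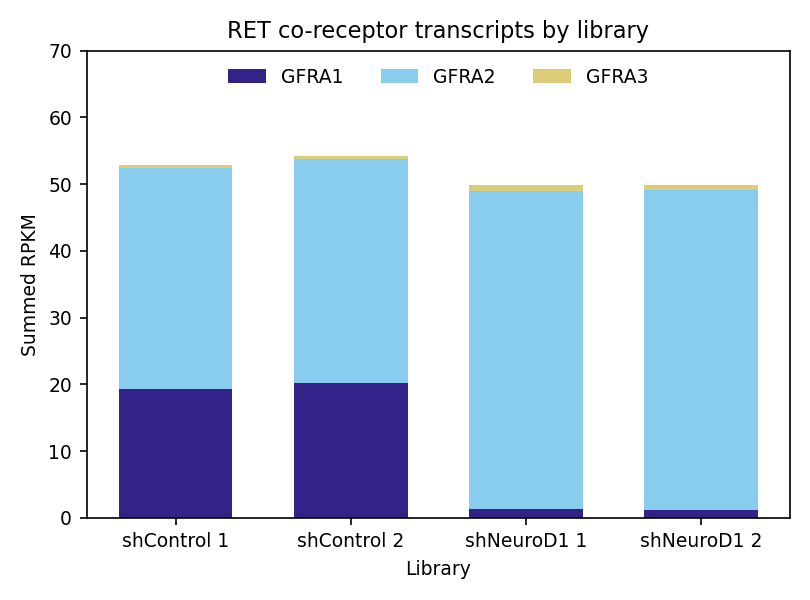
Summed RPKM of the RET co-receptors in each library, split into GFRA1 (dark blue), GFRA2 (light blue) and GFRA3 (yellow). The GFRA1 part shrinks from 36.6% and 37.1% of the bar with shControl to 2.57% and 2.39% with shNeuroD1, while the GFRA2 part grows.

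RET and GFRA1 changed places. GFRA1 RPKM was 49.2 and 55.2 times RET RPKM in the controls and 0.726 and 0.672 times RET RPKM after knockdown. GFRA2 RPKM stayed above RET RPKM in every library, at 84.2 and 92.5 times with shControl and at 27.0 and 26.9 times with shNeuroD1.

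MDK, at chr11:46380756-46383837 on the plus strand, was the most abundant of the 10 transcripts per length in both groups. MDK had 5410 and 5622 counts with shControl and 4585 and 4698 with shNeuroD1. Its groups did not overlap, but the change was small, from 360.5 ± 9.19 to 305.0 ± 5.04 CPM (SD, n = 2), a log2 fold change of −0.24 (SE 0.0419). With library size alone as the scaling, MDK stood at −0.13.

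PTN, at chr7:137227341-137343865 on the minus strand, had 306 and 332 counts with shControl and 638 and 623 with shNeuroD1. Both knockdown libraries were close to each other and above the controls, with 20.8 ± 0.104 against 41.4 ± 0.725 CPM (SD, n = 2) and a log2 fold change of 0.99 (SE 0.0818). The opposite moves of the 2 growth factors narrowed the gap between them. The ratio of MDK to PTN RPKM was 13.8 and 13.2 with shControl and 5.61 and 5.88 with shNeuroD1.

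GDNF and ARTN were at or near the detection limit in these cells. GDNF (chr5:37812677-37839686, minus strand), the founding ligand of the family, gave 3 and 1 counts with shControl and 2 and 0 with shNeuroD1. The ratio of its scaled sums was 0.503, with an exact 95% counting interval from 0.0455 to 3.51, so no difference was detectable at this depth. ARTN (chr1:43933320-43937241, plus strand), which encodes artemin, gave 1 and 4 counts with shControl and 11 and 5 with shNeuroD1. Its ratio was 3.22, with an interval from 1.13 to 11.2. These intervals cover counting error only, and neither gene passed the filter for testing.

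**Figure D3:**
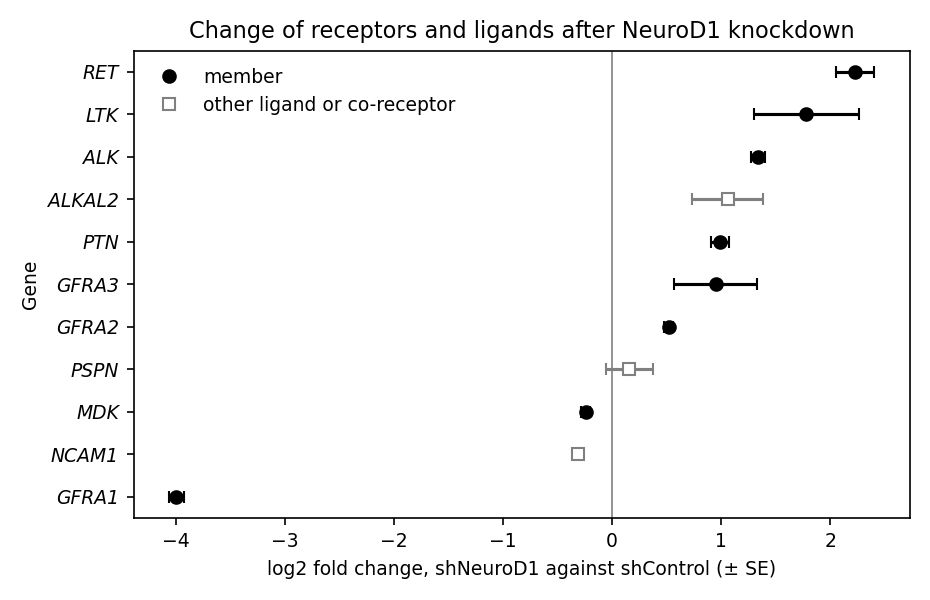
log2 fold change of shNeuroD1 against shControl, with SE bars, for the 8 tested members (filled circles) and for 3 further ligands or co-receptors (open squares). RET (2.23), LTK (1.78) and ALK (1.33) lie highest and GFRA1 (−3.99) lies far below every other gene.

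Ranked by RPKM with shControl, the order was MDK, GFRA2, GFRA1, PTN, ALK, GFRA3, RET, LTK, ARTN and GDNF. Mean RPKM was 164.2 for MDK, 33.4 for GFRA2, 19.7 for GFRA1, 12.2 for PTN, 4.86 for ALK, 0.432 for GFRA3 and 0.379 for RET. Only ARTN and GDNF had ranges that overlapped among neighbours in that order. In shNeuroD1 the order was MDK, GFRA2, PTN, ALK, RET, GFRA1, GFRA3, LTK, ARTN and GDNF, and no neighbouring ranges overlapped. There, mean RPKM was 138.9 for MDK, 47.8 for GFRA2, 24.2 for PTN, 12.3 for ALK, 1.77 for RET, 1.24 for GFRA1 and 0.838 for GFRA3. GFRA1 thus dropped from the third place to the sixth, while RET stood at 1.77 RPKM even after its rise.

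Among 58 receptor tyrosine kinases listed by family, ALK ranked 10 by RPKM with shControl and 4 with shNeuroD1. RET ranked 32 and then 25, and LTK 38 and then 34. Of the 39 receptors that could be tested, these 3 included, 18 rose and 14 fell. Their median log2 fold change was 0.39 against 0.0084 over all genes tested. The sign of that median turned in the FPKM values summed over listed transcript starts (−0.10 and −0.15), where fewer receptors were covered. Over all genes tested, 26.8% passed higher and 28.2% lower. In the order of log2 fold change RET stood at place 1, LTK at place 2 and ALK at place 6 of 39. As the contrast itself chose these 3 genes, nothing is read from their places. LTK had 6 and 7 counts with shControl and passed the filter on low counts only through its shNeuroD1 libraries. Of the other receptors, FGFR2, a fibroblast growth factor receptor, fell with a log2 fold change of −2.62 (SE 0.129, adjusted p = 1.1e-17 in edgeR). EPHA10, an ephrin receptor, rose by 1.77 on the log2 scale (SE 0.144, adjusted p = 3.3e-12 in edgeR), and LMTK3 rose by 1.59 on the log2 scale (SE 0.150, adjusted p = 9.8e-11 in edgeR).

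**Figure D4:**
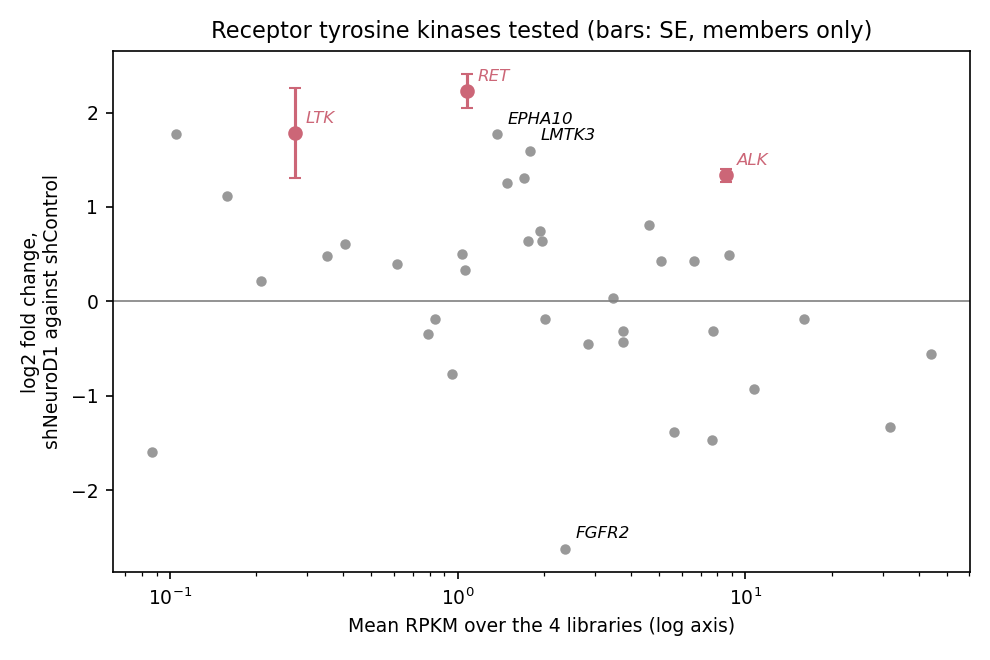
log2 fold change of shNeuroD1 against shControl (vertical axis) and mean RPKM over the 4 libraries (horizontal log axis) for the 39 receptor tyrosine kinases tested; ALK, LTK and RET are in red with SE bars. RET (2.23) is the highest point, and no receptor with a greater mean RPKM than ALK lies above it (1.33).

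The other ligands and co-receptors of these receptors numbered 8, of which 3 could be tested. ALKAL2, an activating ligand of ALK and LTK, had 14 and 26 counts with shControl and 44 and 39 with shNeuroD1. Its log2 fold change was 1.06 (SE 0.324, adjusted p = 0.0062 in edgeR). This call rests on shControl replicate 1: without it the value was 0.72 with an edgeR adjusted p of 0.109, and DESeq2 gave an adjusted p of 0.132. ALKAL1, its paralogue, had 0 counts in every library, which allows up to 3 counts in each, or 0.189 to 0.204 CPM.

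NRTN, which encodes neurturin, had 8 and 10 counts with shControl and 1 in each shNeuroD1 library. The ratio of scaled sums was 0.112 with an exact 95% counting interval from 0.0126 to 0.467, and NRTN was not tested. NCAM1, a neural adhesion molecule that can bind GDNF together with GFRA1, fell by 0.31 on the log2 scale (SE 0.0416, adjusted p = 1.4e-07 in edgeR). PSPN, which encodes persephin, had a log2 fold change of 0.16 (SE 0.213, adjusted p = 0.553 in edgeR). GFRA4, the persephin co-receptor, had 0 counts in 3 libraries and 2 with shNeuroD1 replicate 1, GFRAL had 0 throughout, and GDF15, the GFRAL ligand, had 1 to 3.

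Further genes of the pathway were read in 8 lists that hold 149 genes apart from the members, of which 117 were tested, with 41 passing lower and 49 higher. Over all genes tested, 28.2% passed lower and 26.8% higher. The counts of each list are to be read beside these shares, where rose and fell mean passing higher and lower. As the lists were chosen with earlier results known, nothing is read from their counts. Among the other receptors of midkine and pleiotrophin, 3 of 6 tested rose and 2 fell, with a median log2 fold change of 0.26. That median was 0.052 with DESeq2, 0.051 without a filter on low counts, 0.032 without shControl replicate 1, 0.091 without shNeuroD1 replicate 1 and 0.038 without shNeuroD1 replicate 2. SDC3, a neuronal syndecan that binds pleiotrophin, rose by 1.54 on the log2 scale (SE 0.116, adjusted p = 5e-13 in edgeR). GPC2, a glypican that binds midkine, rose by 0.88 on the log2 scale (SE 0.0490, adjusted p = 3.1e-16 in edgeR), and SDC2, another syndecan, fell by 0.63 on the log2 scale (SE 0.0743, adjusted p = 1.3e-08 in edgeR). Among the adaptors that dock on activated receptors, 13 of 22 tested rose and 6 fell, with a median of 0.16. Only 3 fell without shControl replicate 2, without shNeuroD1 replicate 1, with DESeq2 or with library size alone. SHC3, the neuronal SHC adaptor, went from 5.97 and 8.57 CPM to 51.4 and 49.2 CPM, a log2 fold change of 2.78 (SE 0.109, adjusted p = 2.8e-20 in edgeR). DOK6, an adaptor that binds RET, rose by 1.11 on the log2 scale (SE 0.102, adjusted p = 4.8e-11 in edgeR), and SHC4 rose by 1.03 on the log2 scale (SE 0.220, adjusted p = 0.00017 in edgeR).

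Downstream, of the 10 RAS, RAF, MEK and ERK genes, 6 fell and 1 rose, with a median log2 fold change of −0.19, while 3 fell and 2 rose with library size alone. NRAS, a RAS GTPase, fell by 0.55 on the log2 scale (SE 0.0457, adjusted p = 5.1e-12 in edgeR). ARAF was the gene that rose, by 0.76 on the log2 scale (SE 0.0736, adjusted p = 1.6e-10 in edgeR). Of the 13 PI3K, AKT and mTOR genes, 4 rose and 4 fell, with a median of −0.01 whose sign turned without shControl replicate 2 (0.027), with library size alone (0.097) and in the FPKM values. Without shControl replicate 2, 1 fell, and 2 rose without shControl replicate 1, without shNeuroD1 replicate 2 or with DESeq2, while 2 fell with library size alone. The regulatory subunits PIK3R1 and PIK3R3 rose by 0.79 on the log2 scale (SE 0.0788, adjusted p = 3.4e-10 in edgeR) and 0.66 (SE 0.0581, adjusted p = 1.8e-11 in edgeR). The catalytic subunit PIK3CD rose by 0.69 on the log2 scale (SE 0.222, adjusted p = 0.0091 in edgeR). PIK3CD did not pass with DESeq2 (adjusted p = 0.173), nor without shControl replicate 1, shControl replicate 2 or shNeuroD1 replicate 2. Its log2 fold change ran from 0.48 to 0.88 when each library was left out in turn.

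The genes that ERK signalling is known to induce were mixed. Of 17 tested, 9 rose and 5 fell, with a median of 0.43, and 3 fell without shControl replicate 1 or shControl replicate 2. ETV4, an ETS transcription factor, went from 2.10 and 2.65 CPM to 35.4 and 34.4 CPM (log2 fold change 3.87, SE 0.140, adjusted p = 4e-21 in edgeR). SPRY4, an inhibitor of receptor signalling, rose by 2.39 on the log2 scale (SE 0.143, adjusted p = 1.5e-15 in edgeR). PHLDA1, by contrast, fell by 2.47 on the log2 scale (SE 0.0667, adjusted p = 1.9e-24 in edgeR). Protein and phosphorylation were not measured, so these counts do not give the activity of the pathway.

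**Figure D5:**
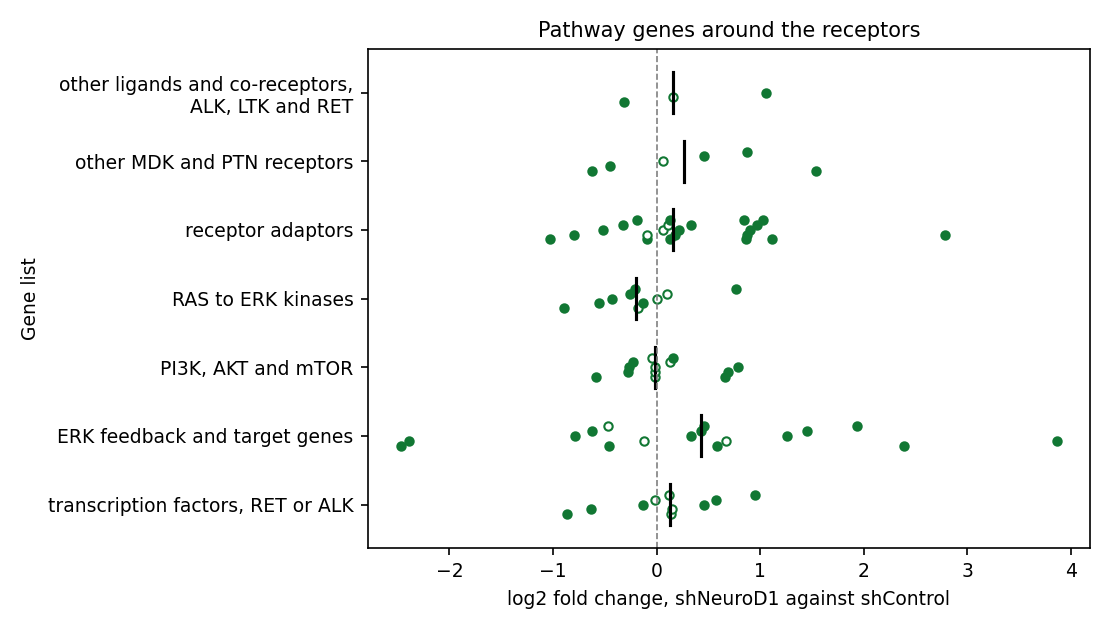
log2 fold change of shNeuroD1 against shControl for each tested gene of 7 pathway lists; filled points passed an edgeR adjusted p of 0.05, open points did not, bars mark list medians and the dashed line marks the median of all genes tested. ETV4 (3.87) and SHC3 (2.78) lie far to the right, PHLDA1 (−2.47) far to the left, and the RAS to ERK kinases spread around a median of −0.19.

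Of the transcription factors known for control of RET or ALK in other settings, 10 were tested, with 3 rising, 3 falling and a median of 0.13, which was 0.029 without shControl replicate 2 and 0.032 without shNeuroD1 replicate 1. ISL1, a LIM homeodomain factor, fell by 0.63 on the log2 scale (SE 0.0725, adjusted p = 6.3e-09 in edgeR).

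The genes whose pattern over the 4 libraries was nearest to ALK, by Euclidean distance of centred log2 CPM among 5251 genes of similar level, were CLCN4 (distance 0.0729), ETV5 (0.0833) and P2RX3 (0.0907). ETV5 is also in the list of ERK target genes. Nearest to RET, among 3098 genes, were MYO5B (0.135), KCNA2 (0.185) and KCNT1 (0.195). With 4 libraries in 2 groups, this measure mainly ranks genes by how alike their fold changes are.

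The deposited tables of assembled transcripts, which list starts, ends and splicing events with their FPKM (fragments scaled for transcript length and library size), gave a second view of the same RNA. They held 74 events of the members, of which 35 reached 1 FPKM in at least 2 libraries. GDNF and ARTN had none. LTK had 1, an end listed at 0.533 FPKM with shControl replicate 1 alone, whereas its counts were higher with shNeuroD1. These tables list a row only above 0, so an unlisted event has no value and no upper limit here.

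ALK transcripts started in 1 listed place, at 29919993-29921603, with 3.06 and 2.83 FPKM with shControl and 7.75 and 8.33 FPKM with shNeuroD1. At the 3′ end of ALK, in exon 29 of ALK-201, the values were 3.16 and 3.42 FPKM and then 10.2 and 9.57 FPKM. The start and the end of the gene thus moved the same way as its counts. A form that retains the intron between exons 16 and 17 (29227672-29228884) was listed in both shNeuroD1 libraries, at 1.70 and 1.45 FPKM, and in neither control. It made up 16.8% and 15.5% of the summed forms of that exon with shNeuroD1. ALK was at a lower level with shControl, and its part in the missing entry there was not tested. A further ALK end inside intron 4 was listed only with shNeuroD1 replicate 2, at 0.763 FPKM.

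The GFRA1 start at 116273163-116273284 had 7.62 and 6.66 FPKM with shControl and 0.642 and 0.332 FPKM with shNeuroD1, and the GFRA1 end went from 10.1 and 12.3 FPKM to 0.722 and 0.448 FPKM. Both ends of GFRA1 were lower in both knockdown libraries than in either control. The main RET start, at 43077064-43077331, was listed only with shNeuroD1, at 0.742 and 1.07 FPKM. A downstream RET start, at 43104732-43105193, was listed at 0.0982 FPKM in shControl replicate 2, where it was the sole RET start listed, and made up 0.112% and 7.96% of the RET start FPKM with shNeuroD1. No RET start was listed in shControl replicate 1.

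GFRA2 had an outer start at 21812231-21812357 that was listed with shControl, at 2.29 and 11.6 FPKM, and not with shNeuroD1. Its main start, at 21788120-21788875, had 19.4 and 12.7 FPKM with shControl and 33.6 and 34.5 FPKM with shNeuroD1. The controls differed widely from each other at the outer start, so the size of that shift is uncertain. The end at the annotated 3′ end of PTN (137227341-137228075) is assigned in the tables to ENSG00000228031, a gene ID other than that of PTN. It had 9.54 and 9.16 FPKM with shControl and 11.3 and 10.9 FPKM with shNeuroD1, a smaller step than the PTN counts show, and the cause was not tested.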

How the data were processed

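RNA sequencing of 4 polyA libraries of IMR-32 was analysed, 2 per group, grouped by the sample titles. Per the submitters' processing notes, cutadapt 1.9.1, HISAT2 2.0.1, HTSeq 0.6.1, DESeq2 and hg38 were used, and their order and the use of strand are not given in the sources used here. The authors deposited raw read counts per Ensembl gene. The authors also deposited FPKM values of transcript starts, ends and splicing events for each library, and the tool that made them is not given in the sources used here.

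Counts were tested with edgeR 4.0.16 in R 4.3.3 (filterByExpr with a minimum count of 10, TMM scaling, quasi-likelihood F test, two-sided, Benjamini-Hochberg adjustment over 17537 genes), a script tested on simulated data. Passing means an adjusted p under 0.05, and called adds a log2 fold change beyond 1 in size. DESeq2 1.42.0, limma 3.58.1 on log2(FPKM + 1) and log2(FPKM + 0.1), other scalings, other filters, a replicate block and leaving out each library were the alternatives. For limma, the FPKM of a gene was the sum over its listed transcript starts, and unlisted starts added nothing. CPM, RPKM, ratios and shares were computed from the counts. The members and lists were chosen with earlier results of these data known. The text names the members, NEUROD1, all other ligands and co-receptors, up to 3 genes per further pathway list with the largest log2 fold change (adjusted p under 0.05, mean of at least 1 CPM, no overlap between groups), and the 3 nearest patterns to ALK and to RET. Some genes that this rule names are not reported here. Markers were named as beside values. Replicates differed by more than counting noise (chi-square per degree of freedom 2.53 and 1.56), so they were treated as separate libraries.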

Additional observations from a re-analysis of the deposited data

How the results depend on the processing

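The directions of the 8 tested members held in every alternative that gave them a value. GFRA1 was −2.52 in log2(FPKM + 1), −3.74 in log2(FPKM + 0.1) and −3.88 with library size alone. DESeq2 passed 2757 genes higher and called 998 higher, and it passed neither LTK nor GFRA3. GFRA3 also did not pass without a filter or without any 1 library, and LTK did not pass without shControl replicate 1, shControl replicate 2 or shNeuroD1 replicate 2. With library size alone, which moved the median of all genes to 0.12 and gave 6114 genes passing higher and 3639 lower, 5 members were called higher, PTN (1.10) and GFRA3 (1.06) among them. Leaving out each library in turn gave 2828 to 3860 genes passing higher, with 2855 without shControl replicate 1 and 2828 without shControl replicate 2.

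The FPKM alternatives took the FPKM of a gene as the sum over its listed transcript starts, so unlisted starts added nothing. They covered 10084 genes and only ALK, GFRA1, GFRA2 and MDK among the members. Of these members, GFRA2 and MDK did not pass under either. A smaller share of the genes covered passed than in the main fit, which also differs in its test and in its measure. The cause was not tested. With a pseudocount of 1 and of 0.1, 278 and 257 genes passed lower, 246 and 206 passed higher, 201 and 206 were called lower and 186 and 174 called higher. Of the members, 1 passed lower, 1 passed higher and 1 was called higher under both. Of the pathway genes, 2 passed lower under both, and 2 and then 1 passed higher. Of the opposite sign there were the medians of the other ligands and co-receptors (−0.032 and −0.034, from NCAM1 alone), of the receptor tyrosine kinases (−0.10 and −0.15) and of the PI3K, AKT and mTOR genes (0.075 and 0.080), and MYO5B (−0.25 and −0.26), for which the cause was not tested. NEUROD1 kept its direction but did not pass (−0.96, limma adjusted p = 0.291, and −1.08, limma adjusted p = 0.288). Of 74 transcript events, 35 remained with at least 1 FPKM in 2 libraries.

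Deviations of same-numbered libraries correlated at 0.0158 across genes, so no replicate effect shared by the groups was seen over the genes as a whole. This value is taken over all genes and includes counting noise, so it cannot exclude a pairing or a shared effect on some genes. With a replicate block, 5000 genes passed lower and 4748 higher, and the members' counts were the same. Depth limits GDNF, ARTN, NRTN, LTK and GFRA3, which rest on 52 counts or fewer per group.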
